A study of Mus musculus with 11 samples.

Results

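SOX17 overexpression (SOX17OE) lines of mouse colon cancer organoids were compared with organoids re-grown from tumours of the same AKP cells in immunocompetent C57Bl6 mice. The question was what growth as a tumour leaves in the cells that forced SOX17 in culture does not, and the reverse. The 5 libraries were chosen by their labels, out of 11 in the series, and all 13720 genes that passed a filter on low counts were tested, out of 23224 listed. The SOX17OE side has 1 library of a constitutive line and 1 of a doxycycline-inducible line. Both lines were made by lentiviral transduction of naive AKP organoids and were grown in culture. Neither line has a replicate, and the sources used here do not say which promoter drives the construct, how many clones a line holds or whether doxycycline was added. The C57Bl6 side has 3 libraries of cultures derived from primary tumours, which grew after naive AKP organoids had been delivered orthotopically by colonoscopy, and which were passaged until cancer cells alone were left. Thus all 5 cultures carry the AKP genotype. Naive AKP organoids (3 libraries), the common source of both sides, are given as a level to read the others against. Cultures from tumours in RAG2KO mice (3 libraries), which lack mature T and B cells, entered the fit of the spread and are given in a few places alone. Below, tumour-derived cultures without a further name are those of C57Bl6 mice. No label gives a sex or an age of the host mice.

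SOX17 is a transcription factor of the SOXF group. It binds short DNA motifs with the core ACAAT, drives formation of the endoderm in the embryo, and later acts in endothelial cells of blood vessels. The adult colon epithelium is renewed by LGR5-marked stem cells that depend on Wnt signalling. Injury can bring out a program that resembles the fetal gut, in which YAP and TAZ, the effectors of the Hippo pathway, take part. Interferon gamma acts on epithelial cells through the receptor chains IFNGR1 and IFNGR2 and raises antigen presentation by MHC class I.

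Library totals were 17521173 expected counts in the constitutive line, 17364887 in the inducible line, 17541721 to 19024262 in the C57Bl6 cultures and 14109182 to 22154456 in the naive ones. The ribosomal RNA precursor Rn45s took 6.39% of the counts in the constitutive line, 3.71% in the inducible line, 2.21% to 3.77% in the C57Bl6 cultures and 2.42% to 4.99% in the naive ones. In C57Bl6 replicate 2, genes of chromosome 13 lay at a median log2 level of -0.747 relative to the naive mean, while the other 4 of these libraries lay between -0.144 and 0.0542. On that chromosome 93 of 419 tested genes were called higher in the SOX17OE lines and 30 lower, and 67 and 35 without C57Bl6 replicate 2. The 10 colon epithelial markers had counts in every library, and summed to 6700 and 9460 CPM in the SOX17OE lines, 9660 to 12200 CPM in the C57Bl6 cultures and 11200 to 13100 CPM in the naive ones. Levels are CPM, which are counts scaled to the effective library size, and compare 1 gene between libraries, not genes with each other. In each gene's values the constitutive line comes before the inducible one, and the C57Bl6 and naive replicates follow in their numbered order.

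Sox17 itself spanned a wide range. It was at 72.7 CPM in the constitutive and 4.78 CPM in the inducible line, against 18.4, 12.4 and 74.3 CPM in the C57Bl6 cultures and 0.0438 to 0.214 CPM in naive organoids. The constitutive line therefore lay within the range of the tumour-derived cultures and the inducible line below it, and every one of the 5 libraries lay above the naive ones. Between the lines the log2 difference of Sox17 was 3.93, constitutive minus inducible (edgeR adjusted p = 0.236). The mean of the lines did not pass the test against C57Bl6, at a log2 fold change of -0.91 (SE 0.67, 95% interval -2.41 to 0.59, edgeR adjusted p = 0.334). That value was 1.05 for the constitutive and -2.87 for the inducible line alone, and 0.28 without C57Bl6 replicate 3. No source used here says whether RNA of the construct is counted under Sox17. Of the other SOXF genes, Sox7 was at 0 counts in both lines and at 3, 15 and 5 counts in the C57Bl6 cultures, and did not pass (edgeR adjusted p = 0.0525). Sox18 was at 0 counts in all 5 of these libraries and was too low to be tested.

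In all, 3734 of the 13720 genes passed the test (27.2%), which is edgeR's quasi-likelihood test of the mean of the lines minus C57Bl6 at a Benjamini-Hochberg adjusted p under 0.05; such a gene is called. The SOX17OE lines were higher for 1662 genes (12.1%) and lower for 2072 (15.1%). These shares are the background for every count below. Scaling by the upper quartile, which moved the median of all genes by 0.1 on the log2 scale, turned the split to 2094 higher and 1659 lower (55.8% of calls higher, against 44.5% as reported). So the balance of higher and lower genes rests on the scaling, and changes are read against a median of -0.0674 over all tested genes. With the constitutive line alone 1089 genes were higher (7.94%) and 1072 lower (7.81%), and with the inducible line alone 1012 (7.38%) and 913 (6.65%). Each line taken singly passed for 522 of the genes higher and 506 of the genes lower. As each line is 1 library, its spread was assumed to be that of the groups of 3. No source says that replicates came from separate animals or cultures, so a p-value measures the spread between these samples alone.

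**Figure D1:**
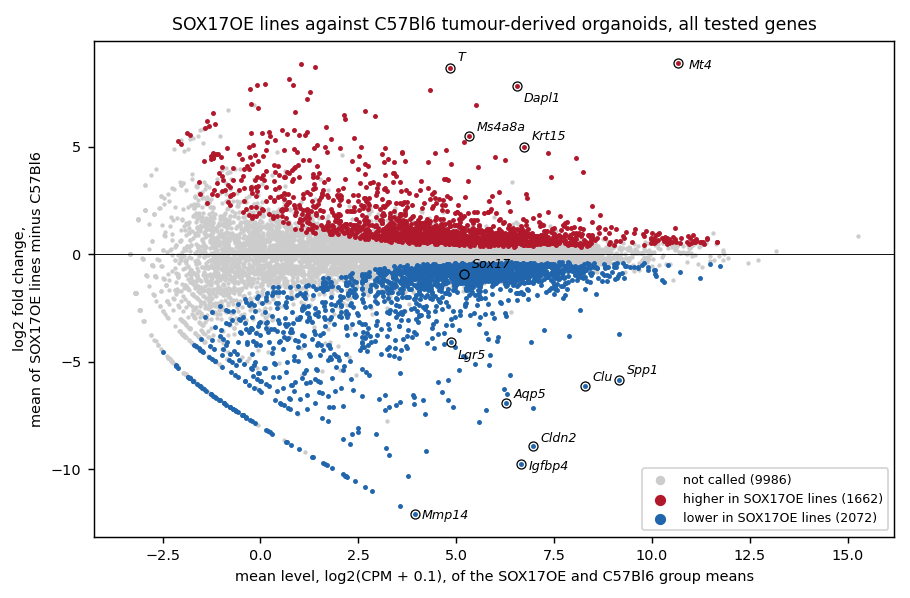
Each point is 1 of 13720 tested genes, with the log2 of the mean CPM plus 0.1 on the x axis and the log2 fold change of the mean of the SOX17OE lines minus C57Bl6 on the y axis; red and blue mark genes called higher (1662) and lower (2072). The streak at the lower left holds genes with 0 counts in both lines, whose fitted values are no measure of size, and Sox17 is circled just below 0 and was not called.

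Over all tested genes the root mean square log2 difference was 1.19 to 1.40 between the constitutive line and the C57Bl6 cultures, 1.16 to 1.30 between the inducible line and the C57Bl6 cultures and 0.929 between the lines. From the naive libraries the constitutive line lay 1.15 to 1.25 away, the inducible line 0.763 to 0.918 and the C57Bl6 cultures 1.07 to 1.21. Among the genes called lower in the lines, the naive mean was nearer the lines for 1032 of 2072 (49.8%), and among those called higher for 666 of 1662 (40.1%), beside 46% of all tested genes. Each direction thus holds genes of both kinds, those whose naive level is nearer the lines and those whose naive level is nearer the tumour-derived cultures. Set against naive organoids in the same fit, the C57Bl6 cultures were called higher for 9.50% of genes and lower for 5.85%, and the mean of the lines higher for 6.77% and lower for 5.92%, and both comparisons share libraries with the main one.

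Genes that the C57Bl6 cultures had and the SOX17OE lines lacked included secreted and matrix proteins, Igfbp4 and Hspg2 among them. Igfbp4, a secreted protein that binds insulin-like growth factors, was at 0.173 and 0.291 CPM in the SOX17OE lines, against 247, 235 and 126 CPM in the C57Bl6 cultures (log2 fold change -9.77, SE 0.58, edgeR adjusted p = 3.47e-05). The naive libraries held at most 1 count of it. Hspg2, which encodes the basement membrane proteoglycan perlecan, was at 0.749 and 0.233 CPM in the SOX17OE lines, against 50.7, 71.9 and 56.4 CPM in the C57Bl6 cultures and 0.0877 to 0.429 CPM in naive organoids. Its log2 fold change was -7.13 (SE 0.58, edgeR adjusted p = 0.000151), and -6.30 and -7.96 in the single lines. For both genes the groups were far from overlapping, and the SOX17OE lines sat near the naive level.

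Several such genes had no count at all in the lines, so that their fold is a lower bound from a floor of 3 counts per library. Mmp14, a membrane-bound matrix metalloprotease, had 0 counts in both SOX17OE lines, against 19.8, 9.31 and 62.2 CPM in the C57Bl6 cultures, and was at least 175-fold lower (83.6-fold without C57Bl6 replicate 3). Its call did not hold with limma voom. Scara3, a scavenger receptor family member, also had 0 counts, against 40.03, 20.5 and 9.45 CPM in the C57Bl6 cultures, at least 134-fold lower (86.2-fold without C57Bl6 replicate 1). Igfbp7, an extracellular relative of the IGF binding proteins, was likewise at 0, against 11.2, 21.8 and 9.80 CPM in the C57Bl6 cultures, at least 82.0-fold lower. Dzip1l, a cilium-associated gene, was at least 52.3-fold lower, and Efemp1, the matrix protein fibulin-3, at least 36.3-fold lower (16.6-fold without C57Bl6 replicate 1). None of these 5 genes had more than 2 counts in a naive library. The rest of the 12 largest falls were Fam149a, Fundc2, Ggta1, Tshz2, Zfp518b, Gata5 and Cadps. Fam149a was at least 72.4-fold lower (25.5-fold without C57Bl6 replicate 1), and its call was lost without either line and with limma voom, while Fundc2, a mitochondrial membrane gene, was at least 60.04-fold lower and lost its call with limma voom. Gata5, an endoderm transcription factor, and Cadps, a secretory vesicle gene, varied widely between cultures, with 21.5, 0.898 and 2.88 CPM of Gata5 and 0.262, 6.28 and 14.3 CPM of Cadps in the C57Bl6 replicates. Gata5 was at least 48.4-fold lower (10.9-fold without C57Bl6 replicate 1), Cadps at least 18.8-fold lower without C57Bl6 replicate 3, and both lost their calls without the constitutive line, with limma voom and with the 5 libraries alone. Cadps also lost its call without the inducible line.

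Over all 23224 listed genes, 52 were on in the C57Bl6 cultures, with at least 1 CPM in every library, and at 3 counts or fewer in both lines, and 20 were on in the lines and at that floor in the C57Bl6 cultures. Of the 52, the naive libraries were all at the floor for 25, all on for 1, the transcription factor gene Tshz2, and in between for 26. Of the 20, naive libraries were at the floor for 2, the deiodinase gene Dio2 and the complement protease gene Masp1, and on for 3. The RAG2KO libraries were all on for 19 of the 52 and for 3 of the 20. The genes named in this paragraph were chosen after their values were seen, and the counts depend on the limits set, as given in the closing part.

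As groups, 6 of 14 tested genes of the insulin-like growth factor axis fell and none rose, with a median log2 fold change of -1.33. Irs1, an adaptor of the insulin and IGF1 receptors, was among them at 8.64 and 6.41 CPM in the SOX17OE lines, against 14.5, 24.1 and 20.8 CPM in the C57Bl6 cultures (log2 fold change -1.41, SE 0.24, edgeR adjusted p = 0.00344). Of 49 matrix proteins and collagens 15 fell and 1 rose (median -1.24). Of 30 matrix proteases and inhibitors 10 fell and none rose (median -0.87). In single lines the matrix count was 5 lower in each and the protease count 5 and 7. The constitutive line also had 2 matrix genes and 1 protease list gene called higher, and the inducible line none. Adamts1, a secreted protease that cleaves proteoglycans, was at 4.32 and 1.17 CPM in the SOX17OE lines, against 29.4, 39.2 and 13.6 CPM in the C57Bl6 cultures, with log2 fold changes of -2.66 and -4.55 for the single lines. Timp2, an inhibitor of metalloproteases, was at 118 and 99.4 CPM in the SOX17OE lines, against 175, 244 and 209 CPM in the C57Bl6 cultures and 90.3 to 102 CPM in naive organoids. This protease and this inhibitor thus fell together relative to the tumour-derived cultures. Col14a1, a collagen, lost its call without the constitutive line and Fn1 (fibronectin) without the inducible one, and Fn1 was at 15.4 and 4.90 CPM in the SOX17OE lines, against 70.4, 217 and 87.5 CPM in the C57Bl6 cultures and 2.63 to 3.50 CPM in naive organoids. Cells of the stroma also make matrix proteins: the 12 fibroblast and smooth muscle markers summed to 6.92 and 0.933 CPM in the SOX17OE lines, 1.15 to 3.09 CPM in the C57Bl6 cultures and 0.357 to 0.572 CPM in naive organoids. Of the 12, 9 and 10 had 3 counts or fewer in the SOX17OE lines, and 11, 7 and 7 in the C57Bl6 cultures. Of the 5 that were tested 1 fell and none rose (median -3.86, and -1.97 and -2.25 in the single lines). It was Acta2, smooth muscle actin, with 4 and 0 counts in the SOX17OE lines, against 14, 22 and 16 counts in the C57Bl6 cultures and 1, 2 and 4 counts in naive organoids (log2 fold change -4.51, SE 1.03, edgeR adjusted p = 0.0118). The log2 fold change of Acta2 was -1.97 without the inducible line, where the call was lost. Without the constitutive line it was -7.06, a value fitted at 0 counts and no measure of size. The inducible line's 0 counts also enter the -4.51. Their part in the matrix result was not tested. In RNA from whole cultures, fewer cells of a type and less RNA per cell cannot be told apart.

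Many YAP and TAZ targets were lower in the lines. Of 24 tested targets 14 fell and none rose, with a median log2 fold change of -1.72. Singly, 10 fell in the constitutive and 11 in the inducible line. Jub (Ajuba), a LIM protein of cell junctions, was at 49.5 and 36.3 CPM in the SOX17OE lines, against 141, 157 and 142 CPM in the C57Bl6 cultures (log2 fold change -1.79, SE 0.14, edgeR adjusted p = 0.000116). Ptpn14, a phosphatase that holds YAP in the cytoplasm, was at 18.9 and 22.5 CPM in the SOX17OE lines, against 61.7, 82.2 and 77.6 CPM in the C57Bl6 cultures. Arhgef17, a guanine nucleotide exchange factor, was at 17.6 and 18.4 CPM in the SOX17OE lines, against 62.8, 87.6 and 77.8 CPM in the C57Bl6 cultures. The lines lay below the naive libraries for Jub (57.7, 56.8 and 64.5 CPM) and Ptpn14 (29.2, 35.3 and 38.6 CPM), and within their range for Arhgef17 (16.4, 29.2 and 32.8 CPM). Ctgf, a secreted matricellular protein often read as a YAP target, was chosen after its values were seen. It was at 35.0 and 29.3 CPM in the SOX17OE lines, against 616, 490 and 222 CPM in the C57Bl6 cultures and 57.4, 66.3 and 155 CPM in naive organoids.

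**Figure D2:**
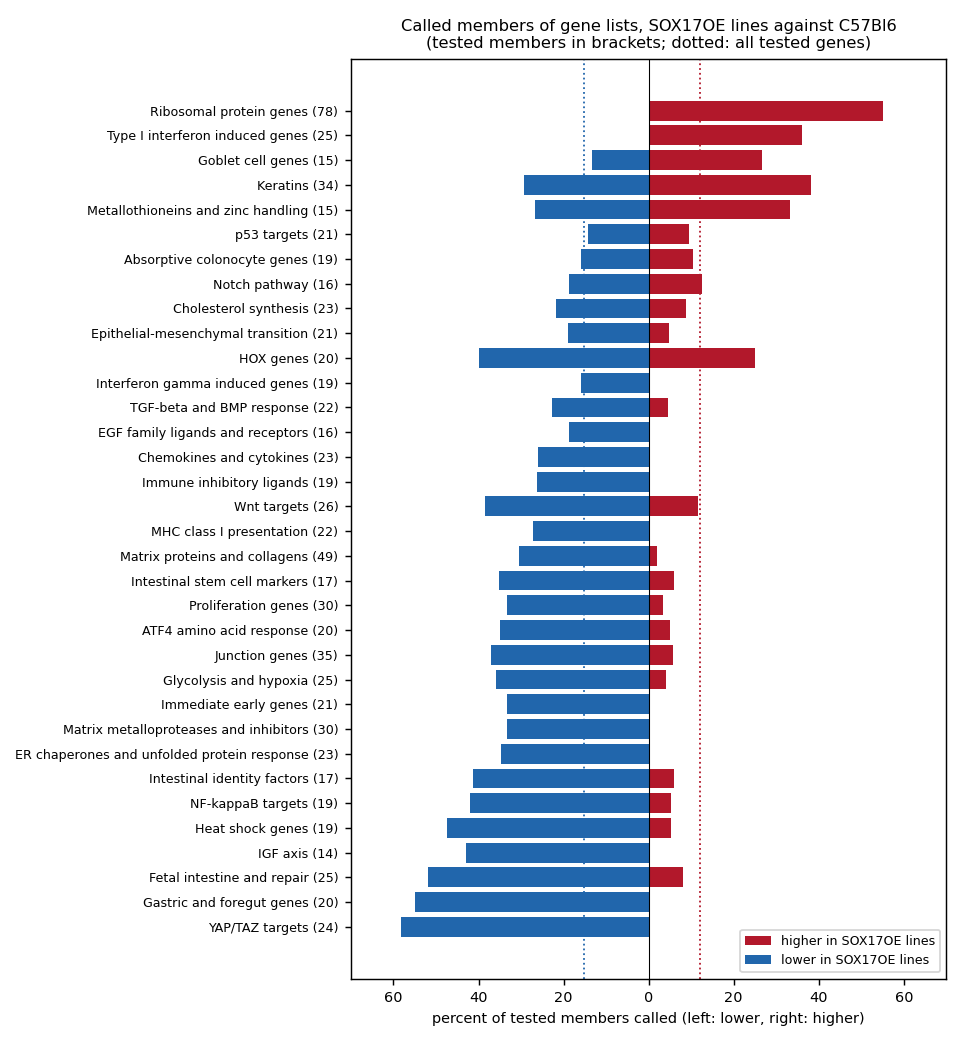
Bars give the percent of tested members of each gene list that were called lower (blue, to the left) or higher (red, to the right) in the SOX17OE lines than in C57Bl6 cultures, for lists with 14 or more tested members, and dotted lines the shares over all tested genes (15.1% and 12.1%). YAP/TAZ targets, with 14 of 24 lower, and gastric and foregut genes, with 11 of 20 lower, have the longest bars on the left, and ribosomal protein genes, with 43 of 78 higher, on the right.

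Genes of the fetal gut and repair and of gastric epithelium followed the same side. Of 25 tested fetal and repair genes 13 fell and 2 rose (median -0.70). Of 20 gastric and foregut genes 11 fell and none rose (median -3.21). Clu, the secreted chaperone clusterin that marks revival stem cells after injury, was at 10.3 and 7.46 CPM in the SOX17OE lines, against 1022, 524 and 310 CPM in the C57Bl6 cultures (log2 fold change -6.14, SE 0.63, edgeR adjusted p = 0.00054). Spp1, which encodes the secreted phosphoprotein osteopontin, was at 25.6 and 15.3 CPM in the SOX17OE lines, against 1916, 828 and 643 CPM in the C57Bl6 cultures (log2 fold change -5.83, SE 0.81, edgeR adjusted p = 0.0019, and -5.22 without C57Bl6 replicate 1). Both genes thus set the C57Bl6 cultures apart from the lines by a wide margin. RAG2KO cultures held 178.5, 250 and 108 CPM of Clu and 569, 820 and 180 CPM of Spp1, above every naive library for both. The 820 CPM of Spp1 lay within the range of the C57Bl6 cultures. Naive organoids held 16.0, 11.3 and 14.7 CPM of Clu and 30.4, 29.2 and 49.4 CPM of Spp1, and the lines lay below every naive library for both. Onecut2, a transcription factor of liver and pancreas development, was at 0.346 and 0.525 CPM in the SOX17OE lines, against 155, 49.5 and 83.5 CPM in the C57Bl6 cultures and 0.833 to 0.953 CPM in naive organoids. Aqp5, a water channel of glandular and pyloric epithelium, was at 1.79 and 0.874 CPM in the SOX17OE lines, against 220, 129 and 113 CPM in the C57Bl6 cultures (log2 fold change -6.94, SE 0.69, edgeR adjusted p = 0.000453). The naive libraries held at most 0.286 CPM of Aqp5, so that the lines were above naive organoids and far below the tumour-derived cultures. Krt7, a keratin of ductal epithelia that both lists hold, was at 1347 and 1751 CPM in the SOX17OE lines, against 2716, 4234 and 2864 CPM in the C57Bl6 cultures and 1268 to 1434 CPM in naive organoids. The calls of Clu, Spp1, Onecut2, Aqp5 and Krt7 held whichever library was left out. Without C57Bl6 replicates 1 to 3 in turn, and likewise for naive and RAG2KO replicates, the gastric count stayed at 10 or 11 and the fetal count at 9 to 13 lower. In the single lines the gastric count was 6 lower in the constitutive and 5 in the inducible line, and the fetal count 8 and 7. The constitutive line also had 1 gastric and 2 fetal genes called higher, and the inducible line 1 fetal gene. With limma voom 5 gastric genes were lower. With the 5 libraries alone 5 gastric and 6 fetal genes were lower.

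**Figure D3:**
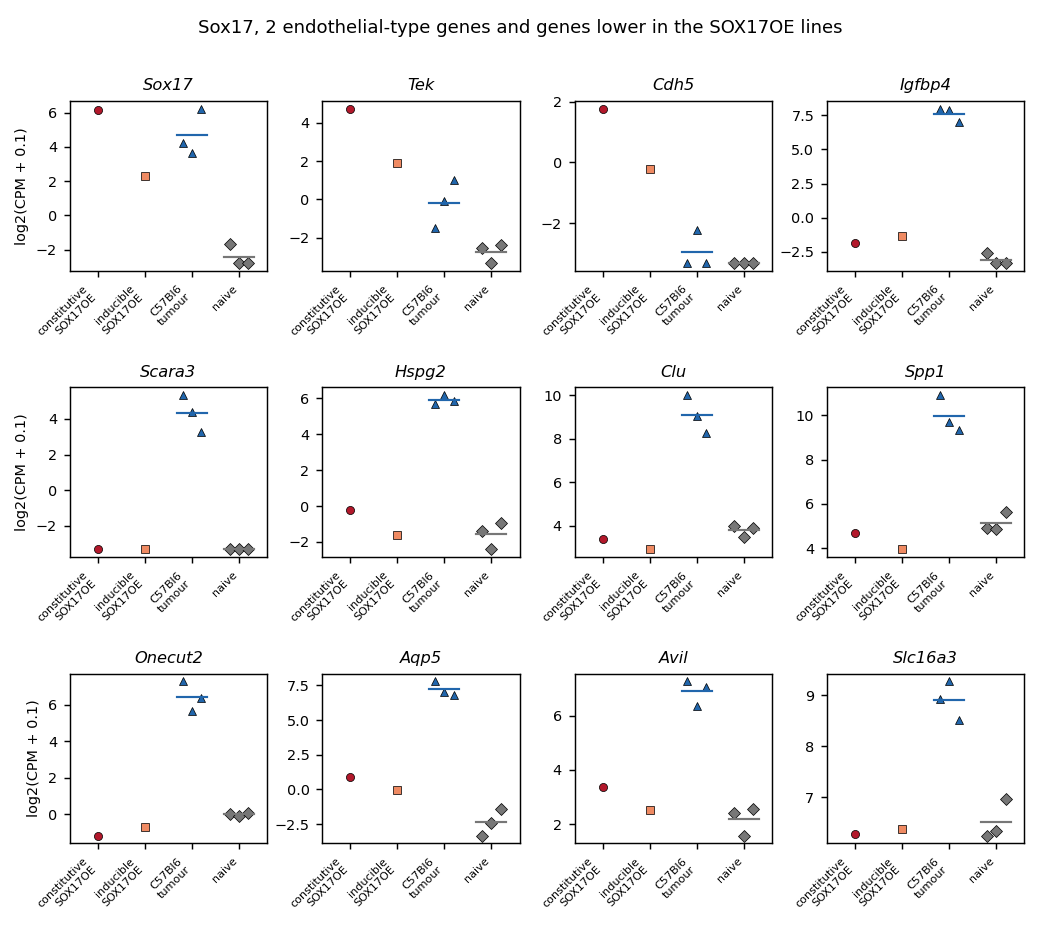
Points are single libraries on a log2(CPM + 0.1) scale, with constitutive SOX17OE, inducible SOX17OE, C57Bl6 tumour-derived and naive organoids from left to right, and bars the mean of the log values in groups of 3. Igfbp4, Scara3, Hspg2, Clu, Spp1, Onecut2, Aqp5, Avil and Slc16a3 are high in the C57Bl6 cultures with no overlap, while the constitutive line is in the range of C57Bl6 for Sox17 and above it for Tek and Cdh5. RAG2KO cultures are not shown, and overlapped the C57Bl6 cultures for Spp1, Onecut2 and Avil.

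Genes for some ligands, receptors and adhesion molecules were also higher in the tumour-derived cultures than in the lines. Tgfb3, a TGF-beta ligand, was at 0.115 and 0.700 CPM in the SOX17OE lines, against 34.5, 42.0 and 13.2 CPM in the C57Bl6 cultures (log2 fold change -6.67, SE 0.88, edgeR adjusted p = 0.00133, and -7.93 and -5.40 in the single lines). Naive organoids held at most 4 counts of it. Of 22 genes of the TGF-beta and BMP response 5 fell and 1 rose (median -0.34). The number lower was 2 in the constitutive and 3 in the inducible line singly, and 3 with any 1 naive or RAG2KO replicate left out and with limma voom. Tgfbr2, a TGF-beta receptor chain, was at 86.2 and 84.4 CPM in the SOX17OE lines, against 214, 176 and 173 CPM in the C57Bl6 cultures. Cxcl3, a chemokine that attracts neutrophils, had 2 and 0 counts in the SOX17OE lines, against 3.14, 3.54 and 2.73 CPM in the C57Bl6 cultures. The counting ratio of Cxcl3, lines over C57Bl6, was 0.0186 (95% interval 0.00223 to 0.0681, counting error alone). As a group, 6 of 23 chemokines and cytokines fell and none rose (median -1.57). That count was 2 in each line singly and 3 without C57Bl6 replicate 1. Of 19 NF-kappaB targets 8 fell and 1 rose (median -0.80), with 3 lower in the constitutive and 7 in the inducible line. Icam1, an adhesion molecule that leukocytes bind, was at 6.92 and 13.9 CPM in the SOX17OE lines, against 28.2, 31.8 and 24.0 CPM in the C57Bl6 cultures and 13.7 to 17.1 CPM in naive organoids. Bcl3, a nuclear partner of NF-kappaB p50 and p52, was at 9.28 and 13.6 CPM in the SOX17OE lines, against 39.1, 26.3 and 40.3 CPM in the C57Bl6 cultures and 18.1 to 27.5 CPM in naive organoids. For both genes the SOX17OE lines lay below the C57Bl6 cultures with no overlap. Lgals1, the carbohydrate-binding protein galectin-1, which dampens T cells, was at 15.8 and 11.2 CPM in the SOX17OE lines, against 240, 279 and 165 CPM in the C57Bl6 cultures (log2 fold change -4.10, SE 0.82, edgeR adjusted p = 0.00769) and 9.20 to 22.1 CPM in naive organoids. The 11 myeloid markers summed to 41.1 and 30.1 CPM in the SOX17OE lines, 39.6 to 71.4 CPM in the C57Bl6 cultures and 36.2 to 46.4 CPM in naive organoids. A list of 13 that holds these 11 gave 2 lower and none higher of 7 tested, and the 2 were Cd14 and Ptprc. No member was called lower in either line singly, and 1 was called higher in the inducible line. Cd14, a co-receptor for bacterial lipopolysaccharide, was at 25.8 and 24.2 CPM in the SOX17OE lines, against 61.3, 34.1 and 39.7 CPM in the C57Bl6 cultures (log2 fold change -0.85, edgeR adjusted p = 0.0288). Ptprc, which encodes CD45, had 3 and 0 counts in the SOX17OE lines, against 3, 18 and 10 counts in the C57Bl6 cultures (edgeR adjusted p = 0.0426). Both lost their calls without either line, and Cd14 also without C57Bl6 replicate 1. Ptprc lost its call for 8 of the 11 libraries left out in turn, and with DESeq2 and limma voom. The 11 lymphoid markers summed to 0.576 and 0.758 CPM in the SOX17OE lines, 0.202 to 0.785 CPM in the C57Bl6 cultures and 0.786 to 1.36 CPM in naive organoids. Most of the 11 had 3 counts or fewer in each library. The part of myeloid or lymphoid cells in these results was not tested.

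Tuft cell genes gave 3 lower and 1 higher of 8 tested, with 2 lower in the constitutive line, and 4 lower and 1 higher in the inducible line. Avil, an actin-binding protein used as a tuft cell marker, was at 10.1 and 5.60 CPM in the SOX17OE lines, against 154, 82.7 and 134 CPM in the C57Bl6 cultures and 2.89 to 5.86 CPM in naive organoids (log2 fold change -4.04, SE 0.37, edgeR adjusted p = 0.000227). Ptgs1, the cyclooxygenase COX-1, was at 4.32 and 2.16 CPM in the SOX17OE lines, against 70.3, 156 and 106 CPM in the C57Bl6 cultures and 1.93 to 2.19 CPM in naive organoids (log2 fold change -5.18, SE 0.47, edgeR adjusted p = 0.000227). RAG2KO cultures held 111, 149 and 126.5 CPM of Avil, within the range of the C57Bl6 cultures. Their 46.4, 52.2 and 24.1 CPM of Ptgs1 lay between the naive and the C57Bl6 levels. Dclk1, a kinase used as a tuft cell marker, had 3 and 0 counts in the SOX17OE lines, against 15, 64 and 10 counts in the C57Bl6 cultures, and its call was lost without the inducible line and with limma voom. Krt4, a keratin of stratified epithelium, was at 46.8 and 137 CPM in the SOX17OE lines, against 728, 1396 and 1020 CPM in the C57Bl6 cultures (log2 fold changes -4.49 and -2.94 in the single lines) and 157 to 175 CPM in naive organoids.

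Some genes lower in the lines than in the tumour-derived cultures were also lower in the lines than in naive organoids. Lgr5, the Wnt-dependent receptor that marks intestinal stem cells, was at 1.56 and 6.29 CPM in the SOX17OE lines, against 64.1, 44.9 and 53.03 CPM in the C57Bl6 cultures (log2 fold change -4.11, SE 0.45, edgeR adjusted p = 0.000582, and -5.11 and -3.10 in the single lines). Naive organoids held 50.9, 71.7 and 50.2 CPM, which overlaps the C57Bl6 cultures. RAG2KO cultures held 20.15, 8.175 and 22.33 CPM of Lgr5, below the naive libraries and above both lines. Of 17 stem cell markers 6 fell and 1 rose (median -0.21), 3 in the constitutive and 4 in the inducible line and 3 without C57Bl6 replicate 1. Tnfrsf19 and Cd44, a TNF receptor family member and a hyaluronan receptor that are both Wnt targets, were among them. Tnfrsf19 was at 52.6 and 46.0 CPM in the SOX17OE lines, against 172, 111 and 129 CPM in the C57Bl6 cultures and 42.1 to 51.4 CPM in naive organoids. Cd44 was at 92.3 and 89.8 CPM in the SOX17OE lines, against 343, 272 and 267 CPM in the C57Bl6 cultures and 130 to 172 CPM in naive organoids. Ccnd1, the G1 cyclin D1, was at 310 and 333 CPM in the SOX17OE lines, against 643, 697 and 592 CPM in the C57Bl6 cultures and 329 to 359 CPM in naive organoids. For Lgr5 and Cd44 the lines lay below the C57Bl6 and the naive cultures, whereas for Ccnd1 and Tnfrsf19 they overlapped naive organoids.

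Ifngr1, a chain of the interferon gamma receptor, was at 25.7 and 29.7 CPM in the SOX17OE lines, against 80.3, 73.5 and 57.8 CPM in the C57Bl6 cultures (log2 fold change -1.35, SE 0.17, edgeR adjusted p = 0.00104). Naive organoids held 58.6, 61.2 and 72.0 CPM, within the range of the C57Bl6 cultures. RAG2KO cultures held 62.7, 62.6 and 55.4 CPM of Ifngr1, above both lines. The other chain, Ifngr2, chosen after its values were seen, was at 130 and 76.7 CPM in the SOX17OE lines, against 77.4, 49.5 and 80.9 CPM in the C57Bl6 cultures, and did not pass (log2 fold change 0.53, 95% interval 0.07 to 0.98 before adjustment, edgeR adjusted p = 0.0819). Ptpn11, the phosphatase SHP2, was at 94.3 and 89.2 CPM in the SOX17OE lines, against 159, 170 and 189 CPM in the C57Bl6 cultures and 122 to 132 CPM in naive organoids. Of 13 interferon gamma signalling genes 3 fell and none rose (median -0.30), and of 19 interferon gamma induced genes 3 fell and none rose (median -0.55), shares near the background. In the constitutive line singly 2 genes of each list rose. The third gene called in the first list, Socs1, and all 3 in the second, Cd74, Wars and Cxcl10, lost their calls when 1 library was left out.

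Epithelial and metabolic genes were also part of this set. Each of the following separated the lines from the C57Bl6 cultures. Cldn2, a claudin that forms cation pores and is made in the crypt base, was at 0.231 and 1.11 CPM in the SOX17OE lines, against 439, 139 and 171 CPM in the C57Bl6 cultures and 16.3, 18.3 and 24.6 CPM in naive organoids. Its log2 fold change was -8.92 (SE 0.81, edgeR adjusted p = 0.000306), -10.04 and -7.81 in the single lines, and -8.23 without C57Bl6 replicate 1. Here the lines lay far below naive organoids and the tumour-derived cultures far above them. Tshz2, a zinc finger gene, had 0 counts in both SOX17OE lines, against 4.35, 10.9 and 11.3 CPM in the C57Bl6 cultures and 1.48 to 2.15 CPM in naive organoids, and was at least 50.8-fold lower. Zfp518b, also a zinc finger gene, had 0 counts in both SOX17OE lines, against 3.67, 9.65 and 12.98 CPM in the C57Bl6 cultures and 0.286 to 0.876 CPM in naive organoids, and was at least 50.4-fold lower. Ggta1, the enzyme that adds alpha-galactose to glycoproteins, had 1 and 0 counts in the SOX17OE lines, against 768, 465 and 304 counts in the C57Bl6 cultures and 13 to 42 counts in naive organoids. Cdh1, which encodes E-cadherin, was at 254 and 253 CPM in the SOX17OE lines, against 751, 490 and 554 CPM in the C57Bl6 cultures and 417 to 569 CPM in naive organoids (log2 fold change -1.24, SE 0.20, edgeR adjusted p = 0.00274). Of 35 junction genes 13 fell and 2 rose (median -0.48). That number was 8 without C57Bl6 replicate 1, C57Bl6 replicate 3 or naive replicate 2, and 8 and 6 in the single lines. Of the 10 colon epithelial markers 6 fell and none rose, Cdh1, Cldn3 and Krt18 among them. Singly, 5 fell in the constitutive line, and 3 fell and 1 rose in the inducible line. Krt18, a keratin of simple epithelia, was at 638 and 836 CPM in the SOX17OE lines, against 1978, 1917 and 1550 CPM in the C57Bl6 cultures and 1128 to 1186 CPM in naive organoids.

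Slc2a1, the glucose transporter GLUT1, was at 90.7 and 93.6 CPM in the SOX17OE lines, against 426, 303 and 319 CPM in the C57Bl6 cultures and 278 to 492 CPM in naive organoids (log2 fold change -1.92, SE 0.26, edgeR adjusted p = 0.00137). RAG2KO cultures held 125, 145 and 111 CPM of Slc2a1, also below the naive libraries. Slc16a3, the lactate exporter MCT4, differed in its naive level: it was at 78.0 and 83.4 CPM in the SOX17OE lines, against 486, 619 and 368 CPM in the C57Bl6 cultures and 76.0 to 126 CPM in naive organoids. Of 25 glycolysis and hypoxia genes 9 fell and 1 rose (median -0.41), with 7 and 8 lower in the single lines. Slc7a5, the LAT1 amino acid transporter, was at 52.9 and 97.3 CPM in the SOX17OE lines, against 250, 239 and 230 CPM in the C57Bl6 cultures and 143 to 200 CPM in naive organoids (log2 fold change -1.74, SE 0.16, edgeR adjusted p = 0.000227). For Slc7a5 the RAG2KO cultures were at 67.5, 69.5 and 66.8 CPM, within the range of the lines. Of 20 genes of the ATF4 amino acid response 7 fell and 1 rose. In the constitutive line 9 fell and none rose, while 1 fell and 3 rose in the inducible line. In addition, 3 were lower in the constitutive than in the inducible line by the test between the lines described below. Foxm1, a driver of mitotic genes, was at 21.1 and 31.8 CPM in the SOX17OE lines, against 58.5, 75.9 and 70.01 CPM in the C57Bl6 cultures and 40.5 to 52.3 CPM in naive organoids. Cdt1 and Rrm2, which license and supply DNA replication, fell as well. RAG2KO cultures held 31.1, 26.3 and 23.3 CPM of Foxm1, within the range of the lines. In all, 10 of 30 proliferation genes fell and 1 rose (median -0.51), with 9 lower in the constitutive and 3 in the inducible line. Of 19 heat shock genes 9 fell and 1 rose, with 4 and 5 lower in the single lines. Of 23 genes of endoplasmic reticulum chaperones 8 fell and none rose, with 2 and 5 lower in the single lines.

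The reverse direction, genes that the SOX17OE lines had and the tumour-derived cultures lacked, included Mt4, Nsg2 and T among the largest rises. T encodes brachyury, a T-box factor of the embryo's primitive streak and mesoderm. It was at 91.2 and 22.5 CPM in the SOX17OE lines, against 0.0524, 0.0561 and 0.202 CPM (1, 1 and 4 counts) in the C57Bl6 cultures and 0.143 to 0.745 CPM in naive organoids. The log2 fold change of T was 8.65 (SE 0.65, edgeR adjusted p = 0.000103), 9.66 and 7.64 in the single lines and 9.53 without C57Bl6 replicate 3. Foxa2, an endoderm pioneer factor, was at 19.5 and 22.7 CPM in the SOX17OE lines, against 3.09, 2.97 and 5.61 CPM in the C57Bl6 cultures and 1.81 to 7.72 CPM in naive organoids (log2 fold change 2.43, SE 0.52, edgeR adjusted p = 0.00964). Gata6, a further endoderm factor, moved the other way, at 2.42 and 6.88 CPM in the SOX17OE lines, against 33.2, 19.6 and 18.8 CPM in the C57Bl6 cultures and 16.2 to 26.4 CPM in naive organoids, and lost its call without the constitutive line. Of 12 tested SOXF and endoderm factors 2 rose, Foxa2 and Eomes, and 4 fell, Gata6 among them. The number that fell was 1 without C57Bl6 replicate 1 or C57Bl6 replicate 3 and 2 without C57Bl6 replicate 2 or naive replicate 2, and in the single lines 1 and 2 fell and 1 and 2 rose. Eomes was at 27.1 and 32.1 CPM in the SOX17OE lines, against 18.8, 8.36 and 10.15 CPM in the C57Bl6 cultures. Naive organoids held 37.6 to 39.3 CPM of Eomes, above both lines. The call of Eomes was lost without the inducible line and without C57Bl6 replicate 3.

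All 4 metallothioneins tested, small zinc-binding proteins, rose in the lines, also in each line singly. Mt4, which is known from stratified epithelia, was at 3722 and 2768 CPM in the SOX17OE lines, against 7.96, 4.26 and 8.18 CPM in the C57Bl6 cultures (log2 fold change 8.88, SE 0.64, edgeR adjusted p = 0.000109). Naive organoids held 268, 228 and 84.8 CPM, so that the C57Bl6 cultures were below naive organoids and the lines above. RAG2KO cultures held 356, 456 and 826 CPM of Mt4, which is also above the naive libraries. Mt2, chosen after its values were seen, was at 602 and 521 CPM in the SOX17OE lines, against 37.8, 18.5 and 64.2 CPM in the C57Bl6 cultures and 138 to 207 CPM in naive organoids. The smallest rise of the 4 was that of Mt1, at a log2 fold change of 1.505. Of the zinc transporters, Slc39a8 was at 35.5 and 39.2 CPM in the SOX17OE lines, against 3.56, 7.12 and 7.47 CPM in the C57Bl6 cultures and 26.7 to 44.6 CPM in naive organoids. Slc39a4, the intestinal zinc importer ZIP4, moved the other way, at 7.84 and 7.87 CPM in the SOX17OE lines, against 138, 93.4 and 72.2 CPM in the C57Bl6 cultures and 25.3 to 48.6 CPM in naive organoids. For Slc39a8 the lines overlap naive organoids, whereas for Slc39a4 they lie below them.

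Keratins split by type, a grouping made after the values were seen. Of 34 tested keratins 13 rose and 10 fell. Among the 13 hair keratins 10 rose and none fell, at log2 fold changes of 1.95 to 6.66. The other 21 gave 3 higher and 10 lower. In the constitutive line singly 9 hair keratins rose, and of the others 3 rose and 4 fell. In the inducible line 7 hair keratins rose, and of the others 2 rose and 3 fell. Krt86, a hair keratin, was at 19.9 and 4.78 CPM in the SOX17OE lines, against 0, 0.281 and 0 CPM in the C57Bl6 cultures and 1.10 to 4.002 CPM in naive organoids (log2 fold change 6.66, SE 1.08, edgeR adjusted p = 0.00312). Without C57Bl6 replicate 2 the fit gave 10.45 against 0 counts, which is no measure of size. Krtap3-1, a keratin-associated protein gene of the hair shaft, had 236 and 60 counts in the SOX17OE lines, against 1, 3 and 0 counts in the C57Bl6 cultures. Its neighbour in the family, Krtap3-3, had 435 and 84 counts in the SOX17OE lines, against 1, 2 and 4 counts in the C57Bl6 cultures. Hair keratins and these proteins come in families of close copies, so reads may be shared among them. Krt15, a keratin of basal and progenitor cells, was at 334 and 84.9 CPM in the SOX17OE lines, against 4.77, 6.34 and 4.85 CPM in the C57Bl6 cultures and 2.67 to 5.93 CPM in naive organoids (log2 fold change 4.98, SE 0.27, edgeR adjusted p = 2.21e-05, and 5.97 and 3.996 in the single lines). Krt15 thus stood at the naive level in the C57Bl6 cultures and far above it in both lines. RAG2KO cultures held 93.3, 84.8 and 84.3 CPM of Krt15, also far above the naive level.

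The HOX genes, which set position along the body axis, split by cluster, again a grouping made after the values were seen. Of 9 tested genes of the B cluster 5 rose and none fell, at log2 fold changes of 1.02 to 1.78. Of 11 of the A cluster 8 fell and none rose, at -4.92 to -1.44. In the constitutive line singly 6 of the B cluster rose and 6 of the A cluster fell, and in the inducible line 4 and 4. Hoxb9 was at 106 and 104 CPM in the SOX17OE lines, against 32.8, 31.5 and 36.4 CPM in the C57Bl6 cultures and 68.0, 69.6 and 79.5 CPM in naive organoids (log2 fold change 1.65, SE 0.14, edgeR adjusted p = 0.000168). Hoxb13, a gene of the hindgut end of its cluster, was at 318 and 310 CPM in the SOX17OE lines, against 93.4, 80.1 and 100.4 CPM in the C57Bl6 cultures and 131 to 185 CPM in naive organoids. Hoxa5 was at 1.56 and 1.63 CPM in the SOX17OE lines, against 11.2, 16.9 and 13.6 CPM in the C57Bl6 cultures and 3.55 to 5.24 CPM in naive organoids (log2 fold change -3.12, SE 0.40, edgeR adjusted p = 0.0011). For these 3 genes the naive level lay between the lines and the C57Bl6 cultures, with no overlap on either side.

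**Figure D4:**
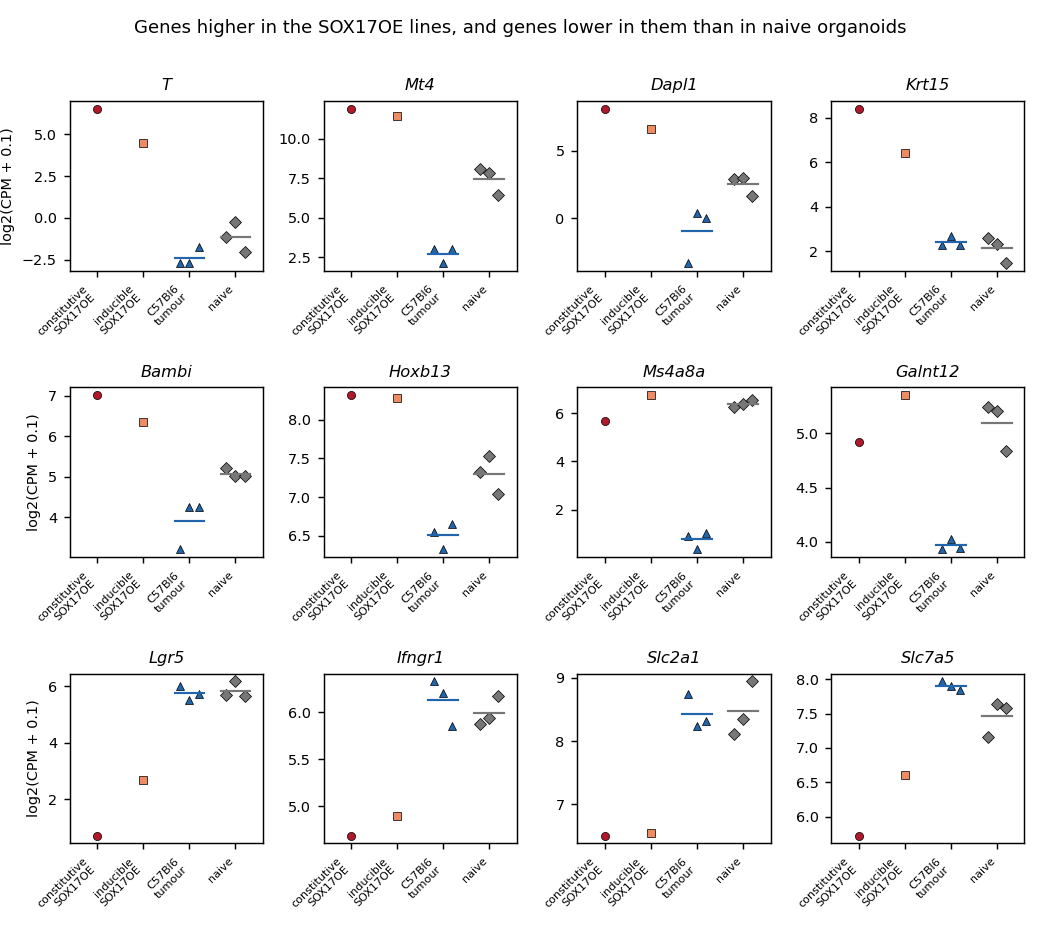
Points are single libraries on a log2(CPM + 0.1) scale, with constitutive SOX17OE, inducible SOX17OE, C57Bl6 tumour-derived and naive organoids from left to right, and bars the mean of the log values in groups of 3. T, Krt15 and Bambi stand out as high in both lines, Ms4a8a and Galnt12 as low in the C57Bl6 cultures, and Lgr5, Ifngr1, Slc2a1 and Slc7a5 as low in both lines. RAG2KO cultures are not shown, and were also below naive organoids for Lgr5, Slc2a1 and Slc7a5.

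Further rises came from signalling genes. Bambi, a pseudoreceptor that blocks TGF-beta and BMP signals, was at 129 and 81.7 CPM in the SOX17OE lines, against 9.12, 18.9 and 19.1 CPM in the C57Bl6 cultures and 32.1 to 36.8 CPM in naive organoids (log2 fold change 2.71, SE 0.33, edgeR adjusted p = 0.000987). RAG2KO cultures held 82.6, 162 and 143 CPM of Bambi. Hes6, a helix-loop-helix factor that opposes HES1, was at 515 and 663 CPM in the SOX17OE lines, against 80.5, 121 and 172 CPM in the C57Bl6 cultures and 156 to 286 CPM in naive organoids. Ptn, the secreted growth factor pleiotrophin, was at 154 and 25.8 CPM in the SOX17OE lines, against 0.0524, 0.449 and 1.01 CPM in the C57Bl6 cultures and 3.72 to 10.6 CPM in naive organoids. The log2 fold change of Ptn was 6.93 (SE 0.86, edgeR adjusted p = 0.0012), 8.22 and 5.64 in the single lines and 7.96 without C57Bl6 replicate 3. Dapl1, a gene of early epithelial differentiation, was at 275 and 97.8 CPM in the SOX17OE lines, against 0, 1.23 and 0.909 CPM in the C57Bl6 cultures and 3.05 to 7.84 CPM in naive organoids (edgeR adjusted p = 0.000582). Its log2 fold change of 7.84 was 8.59 and 7.09 in the single lines, 7.25 without C57Bl6 replicate 1 and 8.45 without C57Bl6 replicate 2. Nsg2, a gene of neuronal endosomes, had 159 and 16 counts in the SOX17OE lines and 0 counts in each C57Bl6 culture, and was at least 31.7-fold higher. Without the constitutive line the bound was 5.87-fold and the call was lost, as it was with DESeq2 and with the 5 libraries alone.

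For other genes called higher, the tumour-derived cultures were low against naive organoids as well as against the lines. Ms4a8a, a membrane protein of the MS4A family, was at 50.6 and 107 CPM in the SOX17OE lines, against 1.78, 1.18 and 1.97 CPM in the C57Bl6 cultures and 76.8, 83.6 and 92.2 CPM in naive organoids (log2 fold change 5.47, SE 0.25, edgeR adjusted p = 9.35e-06). Dner, a Notch-related receptor, was at 10.3 and 9.68 CPM in the SOX17OE lines, against 0.314, 0.168 and 0.202 CPM in the C57Bl6 cultures and 3.55 to 8.44 CPM in naive organoids. Pde4b, a phosphodiesterase that breaks down cyclic AMP, was at 44.5 and 35.9 CPM in the SOX17OE lines, against 0.105, 0.505 and 0 CPM in the C57Bl6 cultures and 8.25 to 9.51 CPM in naive organoids. Its log2 fold change of 7.62 was 9.42 without C57Bl6 replicate 2 and 7.02 without C57Bl6 replicate 3. Galnt12, which starts O-glycans on mucins, was at 30.3 and 40.7 CPM in the SOX17OE lines, against 15.1, 16.2 and 15.3 CPM in the C57Bl6 cultures and 28.5 to 37.8 CPM in naive organoids (log2 fold change 1.17, SE 0.18, edgeR adjusted p = 0.00219). Of 15 goblet cell genes 4 rose and 2 fell, with 3 and 2 higher and none lower in the single lines, and none lower with limma voom. The last of the 12 largest rises, the pseudogene Alms1-ps2, lost its call without the inducible line and without C57Bl6 replicates 1 or 3.

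Ribosomal protein genes rose as a group by small amounts. Of 78 tested, 43 rose and none fell, with a median log2 fold change of 0.53, and 12 rose in the constitutive and 26 in the inducible line singly. Fewer rose with a library left out, 23 without C57Bl6 replicate 1, 18 in the absence of C57Bl6 replicate 3 and 28 in that of naive replicate 2, while the highest such count was 57. In 63 of the 78 genes both lines lay above all 3 C57Bl6 cultures, as they did for 24.8% of all tested genes, and in no gene below them, beside 26.8%. Rps23 was at 2062 and 2287 CPM in the SOX17OE lines, against 1003, 846 and 968 CPM in the C57Bl6 cultures (log2 fold change 1.21, SE 0.17, edgeR adjusted p = 0.0015) and 1257 to 1636 CPM in naive organoids. Rps23 lies on chromosome 13. Rpl39 was at 1216 and 1268 CPM in the SOX17OE lines, against 611, 668 and 498 CPM in the C57Bl6 cultures and 641 to 831 CPM in naive organoids. Many processed pseudogenes copy these genes, so reads may be shared.

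Type I interferon induced genes, an antiviral set, rose mostly in the constitutive line. Of 25 tested 9 rose and none fell with the mean of the lines (median 1.02), and 4 rose without C57Bl6 replicate 3. In the constitutive line 16 rose (median 2.21), and in the inducible line 1, Mx1. Mx1, an antiviral GTPase, was at 26.9 and 6.59 CPM in the SOX17OE lines, against 0.943, 0.673 and 1.51 CPM in the C57Bl6 cultures and 0.214 to 0.763 CPM in naive organoids (log2 fold change 3.66, SE 0.47, edgeR adjusted p = 0.00107, and 4.67 and 2.65 in the single lines). Rtp4, a chaperone induced by interferon, was at 73.1 and 1.98 CPM in the SOX17OE lines, against 0.996, 1.85 and 1.47 CPM in the C57Bl6 cultures, with log2 fold changes of 5.66 and 0.46 in the single lines, and lost its call without the constitutive line. Oas1a, which senses double-stranded RNA and was chosen after its values were seen, was at 57.5 and 2.33 CPM in the SOX17OE lines, against 2.93, 6.51 and 4.65 CPM in the C57Bl6 cultures. Its call with the mean was lost without C57Bl6 replicate 1 or C57Bl6 replicate 3. A test of the constitutive minus the inducible line was added after the data were seen, and called 39 of 13720 genes (0.284%), 11 higher in the constitutive line (0.0802%) and 28 lower (0.204%). By that test Oas1a differed between the lines (log2 difference 4.62, edgeR adjusted p = 0.025), and none of the other 24 interferon genes passed.

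**Figure D5:**
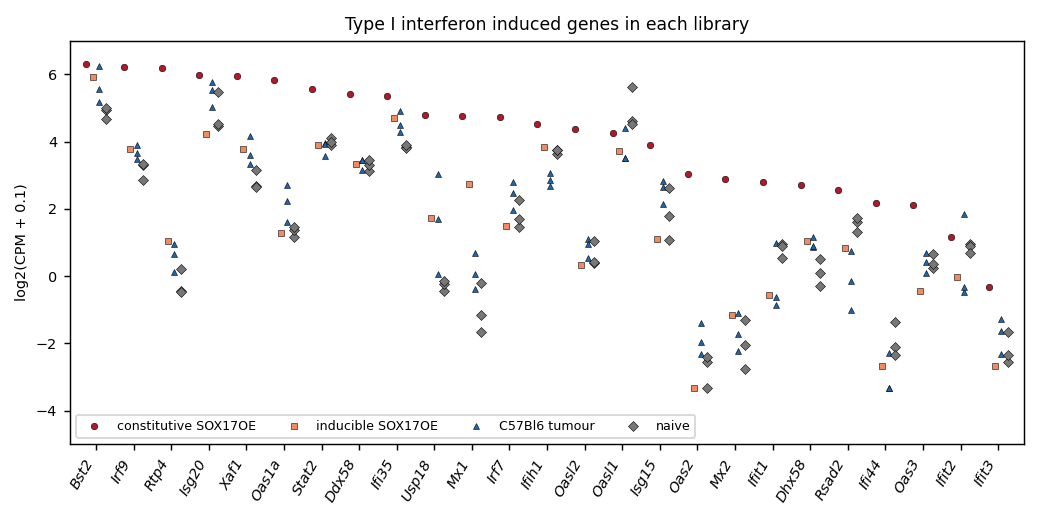
Points are the log2(CPM + 0.1) of the 25 tested type I interferon induced genes in each library, ordered by their level in the constitutive SOX17OE line; within a gene, constitutive, inducible, C57Bl6 and naive libraries run from left to right. The constitutive line is above the other libraries shown for most genes, while the inducible line is above all C57Bl6 cultures for Mx1, Rsad2, Ifih1 and Rtp4 alone.

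MHC class I genes gave 6 lower and none higher of 22 tested (median -0.27). Singly, 1 was lower and 1 higher in the constitutive line, and 4 were lower in the inducible line. The member with the smallest adjusted p was Calr, the chaperone calreticulin, at 434 and 353 CPM in the SOX17OE lines, against 888, 713 and 656 CPM in the C57Bl6 cultures (log2 fold change -0.94, SE 0.17, edgeR adjusted p = 0.0042). B2m encodes the invariant subunit shared by class I molecules, was chosen after its values were seen, and lay on opposite sides in the lines. It was at 135 and 43.2 CPM in the SOX17OE lines, against 71.3, 80.2 and 68.1 CPM in the C57Bl6 cultures and 32.3 to 34.2 CPM in naive organoids. The constitutive line was above C57Bl6 (log2 fold change 0.89, edgeR adjusted p = 0.0186) and the inducible line below it (-0.76, edgeR adjusted p = 0.0481), and the lines differed from each other (1.65, edgeR adjusted p = 0.0367). The heavy chain gene H2-K1, also chosen later, was at 352 and 328 CPM in the SOX17OE lines, against 407, 496 and 419 CPM in the C57Bl6 cultures, and did not pass (log2 fold change -0.37, 95% interval -0.70 to -0.05 before adjustment, edgeR adjusted p = 0.0851). H2-D1 passed at -0.47 (edgeR adjusted p = 0.0298) and lost its call without either line, C57Bl6 replicate 2 or 3, or naive replicate 2, and with upper quartile scaling.

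Of 10 endothelial-type genes 4 rose and 1 fell. Singly, 3 rose in the constitutive line and none in the inducible line, and no member differed in the test between the lines. The number that rose was 2 without C57Bl6 replicate 2 or C57Bl6 replicate 3. Tek, the angiopoietin receptor TIE2, was at 26.1 and 3.61 CPM in the SOX17OE lines, against 0.262, 0.842 and 1.92 CPM in the C57Bl6 cultures and at most 2 counts in naive libraries. Its log2 fold change was 3.25 (SE 0.77, edgeR adjusted p = 0.0137), 4.68 and 1.83 in the single lines and 4.13 without C57Bl6 replicate 3, and the call was lost without the constitutive line. Cdh5, which encodes vascular endothelial cadherin, was at 3.29 and 0.758 CPM in the SOX17OE lines, against 0, 2 and 0 counts in the C57Bl6 cultures, a counting ratio of 57.5 (95% interval 15.3 to 484, counting error alone), and its fitted call was also lost without the constitutive line. Over the 10 endothelial markers the sum was 40.4 and 8.45 CPM in the SOX17OE lines, 5.66 to 10.4 CPM in the C57Bl6 cultures and 2.45 to 4.43 CPM in naive organoids, and 5 of the 10 had 3 counts or fewer in each line. Of 19 absorptive colonocyte genes 2 rose, Krt20 and Car1, and 3 fell, Cdhr2 among them. Krt20 was at 91.1 and 10.7 CPM in the SOX17OE lines, against 4.61, 1.85 and 1.87 CPM in the C57Bl6 cultures. Naive organoids held 2.28 to 5.48 CPM of Krt20. Car1, the carbonic anhydrase of colonocytes, was at 35.9 and 375 CPM in the SOX17OE lines, against 7.86, 8.58 and 33.2 CPM in the C57Bl6 cultures. Naive organoids held 114, 94.0 and 62.9 CPM of Car1, above the constitutive and below the inducible line. Cdhr2 was at 4.32 and 27.3 CPM in the SOX17OE lines, against 94.2, 49.4 and 32.8 CPM in the C57Bl6 cultures. Its call was lost without the constitutive line. Krt20 was called in the constitutive line singly (log2 fold change 5.03) and Car1 in the inducible line (4.496), and for neither did the difference between the lines pass (edgeR adjusted p = 0.21 for both).

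The promoters of genes called in each direction were searched for the SOX core ACAAT on either strand, over 250 bases before to 50 after each start, in RefSeq promoters of GRCm38.p6 matched by symbol. A match was found in 22.2% of 1476 promoters of genes called higher in the lines, 18.1% of 1927 of genes called lower and 20.8% of 12313 of all tested genes, beside 31.0% of all 32851 promoters in the table. These shares are a description without a test. Of the 12 largest rises 10 had a promoter in the table and 3 held a match (Nsg2, Pde4b and Krtap3-3), and of the 12 largest falls 11 had one and 2 held a match (Fam149a and Tshz2). Below are a rise with a match, the vessel gene with a match on each strand, and a fall with a match; capitals mark ACAAT or its reverse complement ATTGT, and each sequence reads 5′ to 3′ on the strand of its gene.
Krtap3-3, chr11:99550814-99551113, minus strand: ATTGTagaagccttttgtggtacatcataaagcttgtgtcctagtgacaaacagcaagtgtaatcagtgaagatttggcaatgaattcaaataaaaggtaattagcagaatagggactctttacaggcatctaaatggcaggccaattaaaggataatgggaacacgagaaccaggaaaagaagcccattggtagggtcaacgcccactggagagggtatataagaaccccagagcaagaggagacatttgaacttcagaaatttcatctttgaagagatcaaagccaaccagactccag
Tek, chr4:94739039-94739338, plus strand: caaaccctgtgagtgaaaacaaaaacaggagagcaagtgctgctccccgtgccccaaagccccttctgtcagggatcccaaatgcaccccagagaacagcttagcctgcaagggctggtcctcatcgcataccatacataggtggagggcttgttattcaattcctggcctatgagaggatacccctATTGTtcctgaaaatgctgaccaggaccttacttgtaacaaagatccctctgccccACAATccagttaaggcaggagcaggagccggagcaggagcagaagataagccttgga
Tshz2, chr2:169632259-169632558, plus strand: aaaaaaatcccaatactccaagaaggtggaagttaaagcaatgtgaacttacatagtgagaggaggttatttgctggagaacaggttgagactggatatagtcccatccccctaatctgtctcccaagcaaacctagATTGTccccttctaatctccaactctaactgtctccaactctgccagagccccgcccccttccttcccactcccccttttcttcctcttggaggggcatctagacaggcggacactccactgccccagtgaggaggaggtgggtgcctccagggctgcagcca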

How the data were processed

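The deposited table held expected counts per gene from poly(A) RNA, which the authors made with Bowtie and RSEM on mouse genome build mm9, per the submitters' processing notes, which give no versions here. Libraries were stranded (NEBNext Ultra II Directional), per the labels' protocols. Expected counts were rounded to whole numbers. edgeR 4.0.16 (R 4.3.3) with TMM scaling and filterByExpr kept 13720 of 23224 genes, and a robust quasi-likelihood fit over all 11 libraries in 5 groups gave the mean of both SOX17OE lines minus C57Bl6, two-sided, with Benjamini-Hochberg adjustment over all tested genes at 0.05. The biological coefficient of variation was 25.3%, with 6 residual degrees of freedom. Intervals and bounds from counts cover counting error alone, and genes at 0 take a floor of 3 counts per library.

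Genes are named by a rule: SOXF genes; called genes whose groups do not overlap and whose higher group averages 5 CPM or more, taking 12 with the largest rise and 12 with the largest fall; and the first 3 called genes of each list by adjusted p. Members and lists were chosen with earlier results of these data known. Tested on simulated data for the main comparison, with 13445 genes, the fit recovered 50 of 100 genes changed 2-fold and 80 of 100 changed 4-fold, with 8 false calls. The simulated lines had the same mean and were given the spread of the groups of 3, so that assumption was not tested. Changed genes were picked from those with higher counts. Alternatives were other scalings, filters and tests (DESeq2 1.42.0, limma 3.58.1 voom), other groupings and each library left out. Same-numbered libraries did not deviate together (correlations -0.213 to 0.244), so the numbers were not used as pairs. Some results are not reported here.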

Additional observations from a re-analysis of the deposited data

How the results depend on the processing

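The counts of genes higher and lower in the SOX17OE lines than in C57Bl6 cultures (1662 and 2072) stayed within 1.5 times under every other scaling, filter and test run, but were 782 and 879 with the 5 libraries alone and the lines as 2 samples, where fewer samples give the spread. They ranged from 1007 to 1688 higher and from 911 to 2140 lower with 1 library left out, lowest without the constitutive line. For the constitutive line alone the range was 741 to 1143 higher and 705 to 1157 lower (lowest without naive replicate 2), and 1668 lower with DESeq2. For the inducible line alone it was 654 to 1075 higher (lowest without C57Bl6 replicate 3) and 548 to 1009 lower (lowest without naive replicate 2), and 1584 lower with DESeq2; the cause was not tested.

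Genes on in the C57Bl6 cultures and at the floor in the lines numbered 15 with a floor of 0 counts and 30 at 2 CPM, and those on in the lines 3 and 5. Sox17 reversed to 0.15 with the lines as 2 samples, 0.17 with the 5 libraries alone and 0.28 without C57Bl6 replicate 3, and ranged from -2.87 to 1.05 with 1 library left out. Oas1a ranged from -1.01 without the constitutive line to 3.61 without the inducible one, and B2m from -0.76 to 0.89, since the lines lie on opposite sides. Of 135 named genes called, 81 kept their call with each of 11 libraries left out and 96 under the 9 other settings. No paired analysis was possible because the SOX17OE lines carry no replicate number; for C57Bl6 minus naive, the replicate block gave 1068 genes higher and 669 lower, against 1256 and 833 in the same 9 libraries without it. The single library per line limits every value for a line.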
